A study of Mus musculus with 60 samples.

Results

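The late phase of retinoic acid (RA) differentiation was followed in control mouse embryonic stem cells (mESCs) by comparing 3 RNA libraries made after 60 h of RA (T60) with 3 made after 24 h of RA (T24). These 6 libraries, of 60 in the series, were chosen by their labels alone. All came from E14JU cells, an mESC line of 129/Ola background, of the genotype POLE4-dTAG, in which the histone-binding polymerase subunit POLE4 carries a degron tag. The cells received the solvent DMSO for 24 h in serum with LIF (leukemia inhibitory factor) and then RA without LIF, and they are called Ctrl here. Ctrl libraries from the end of the DMSO treatment (T0) and from 12 h of RA (T12) show what came before, with all times taken from the sample titles. The change from 24 to 60 h was also set beside the change in 6 dPOLE4 libraries, from the same line treated with 1 µM dTAG to remove POLE4, and in 6 Ctrl MCM2-2A libraries, from POLE4-dTAG cells that also carry the histone-binding mutant MCM2-2A and were labelled as clone 2 of that line, treated with DMSO. The study used RA to ask whether cells with disturbed transfer of old histones to new DNA can still leave pluripotency toward neural fates.

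RA binds nuclear receptors of the RAR family, which act with RXR partners on DNA and switch their target genes from repressed to active. In embryos RA patterns the hindbrain and spinal cord through the Hox genes, and in mESCs without LIF it ends self-renewal within days. Depending on dose, serum and adhesion, RA-treated mESCs can give neural cells but also extraembryonic endoderm and mesenchymal cells, and the transcription factors Pou5f1 (Oct4), Sox2 and Nanog are lost on the way.

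The 3 T24 libraries held 19901789 to 29229306 counts and the 3 T60 libraries 10461077 to 16674461, so that depth and time cannot be told apart, although thinning every library to 10461077 counts left 5762 features called. Libraries of 1 group correlated at r of at least 0.993 in log2 CPM (counts scaled to a common library size), and libraries of different groups at no more than 0.948. Mitochondrial genes held 1.81 to 2.86% of the counts at T24 and 0.703 to 1.13% at T60. Of 18290 features tested (17439 genes and 851 repeat subfamilies), 6528 (35.7%) were called, with 3620 higher (19.8%) and 2908 lower (15.9%) at T60. To be called, a feature needed a Benjamini-Hochberg adjusted p under 0.01 in edgeR's quasi-likelihood test and a log2 fold change beyond 0.58 in either direction, or about 1.5-fold. The 3 T24 and the 3 T60 values did not overlap for 70.1% of all features tested. Of the genes, 20.6% were higher and 15% lower. Among protein-coding genes 3219 of 14571 (22.1%) were higher and 2002 (13.7%) lower, whereas of 433 lincRNA genes, which make long noncoding RNAs, 62 (14.3%) were higher and 139 (32.1%) lower, 46.4% in all.

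To see which programs moved, 26 gene lists with 396 distinct members were examined. Of the members, 22 are in 2 or more lists, so that the counts of different lists are not independent. In all, 368 members passed the count filter. Of these, 156 rose and 95 fell, to be read against the 19.8% and 15.9% of all features. The median log2 fold change of all features was -0.01. In the following, levels are given as CPM on a single scale, a change is the log2 fold change of T60 over T24 with its standard error, on which 1 unit is a 2-fold change, and members that did not pass the threshold are given by their values alone. The libraries hold RNA of mixed cells, so that fewer cells of a type and less RNA per cell cannot be told apart.

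**Figure D1:**
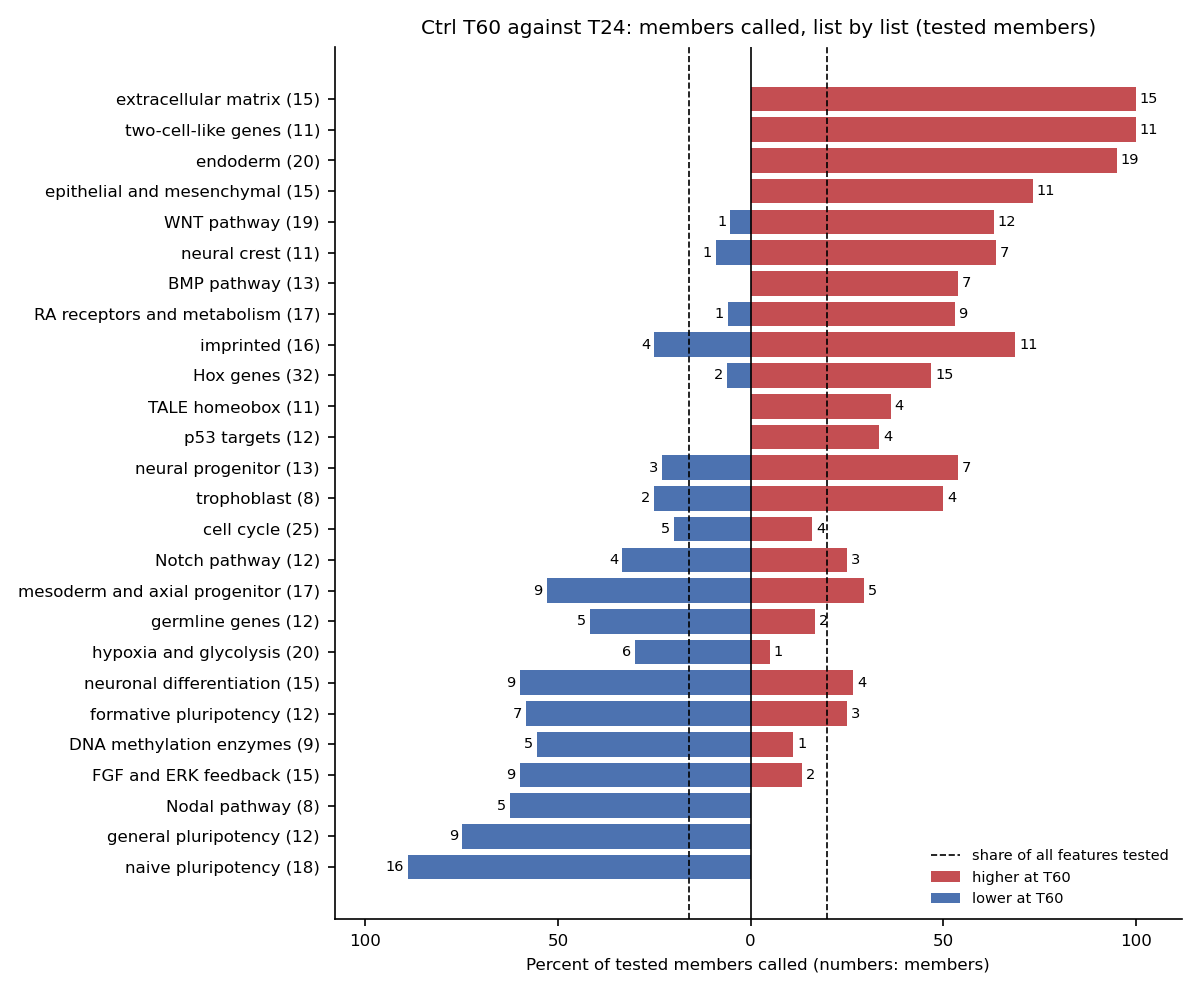
Percent of the tested members of each gene list that were called higher (right, red) or lower (left, blue) at T60 than at T24 in Ctrl cells, with the number of members called at each bar and the number tested in brackets. The dashed lines mark the 19.8% higher and 15.9% lower calls among all 18290 features. All 15 extracellular matrix genes and all 11 2-cell-like genes tested were higher, and 16 of 18 naive pluripotency genes were lower.

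The RA pathway itself was still changing between 24 and 60 h. Of 17 tested genes for RA receptors and for RA synthesis, binding and breakdown, 9 rose, 1 fell and 7 were not called, with a median change of 0.68. Rarb encodes an RA receptor that is itself a classical RA target, and Cyp26a1 encodes an enzyme that oxidizes RA. Their promoters are shown because both hold a direct repeat of receptor motifs with 5 bases between (DR5), the element to which RAR and RXR bind. The sequences are from RefSeq, 250 bases before to 50 after the start of transcription in GRCm38.p6, with the DR5 in capitals, for Rarb on the minus strand (chr14:16575427-16575726) and for Cyp26a1 on the plus strand (chr19:37697558-37697857).
Rarb: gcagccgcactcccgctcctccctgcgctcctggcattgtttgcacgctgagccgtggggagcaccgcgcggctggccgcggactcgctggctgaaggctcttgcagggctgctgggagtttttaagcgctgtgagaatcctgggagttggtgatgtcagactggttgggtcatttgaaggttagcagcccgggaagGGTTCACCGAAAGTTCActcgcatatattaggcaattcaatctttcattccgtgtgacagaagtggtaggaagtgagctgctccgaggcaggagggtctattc
Cyp26a1: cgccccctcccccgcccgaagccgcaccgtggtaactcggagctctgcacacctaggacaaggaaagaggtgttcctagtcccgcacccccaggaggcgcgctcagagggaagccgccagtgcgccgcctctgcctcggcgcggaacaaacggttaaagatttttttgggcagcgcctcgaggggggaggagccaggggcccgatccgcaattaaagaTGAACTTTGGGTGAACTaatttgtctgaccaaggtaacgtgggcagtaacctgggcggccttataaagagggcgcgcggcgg
The search took any pair, in the same direction, of the cores AGGTCA and AGTTCA and GGGTCA and GGTTCA, with any 5 bases between, on both strands. It found the DR5 at -53 to -37 from the start of Rarb and at -32 to -16 from that of Cyp26a1, and in 32 of 32851 RefSeq promoters of this length (0.0974%). Of the 8 tested genes with such a match, 1 rose and 3 fell, beside 19.8% and 15.9% of all features.

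Rarb was at 17.4, 21.5 and 22.1 CPM in the T24 libraries and at 52.9, 50.4 and 49.5 CPM in the T60 libraries. It rose by 1.34 ± 0.09 (adjusted p = 6.5e-09), from 0.399 CPM at T0 and 11.9 CPM at T12. Cyp26a1 took another course. It went from 3.23 CPM at T0 to 191 CPM at T12 and was at 172, 194 and 186 CPM at T24 and 275, 190 and 172 CPM at T60. These 2 sets of values overlap, and the change of 0.22 ± 0.12 was not called (adjusted p = 0.13), and without the T60 replicate 1 it was -0.02. Its relative Cyp26b1 (chromosome 6, 84571414 to 84593908), which breaks down RA in the hindbrain and limb, was at 17.7, 21.9 and 25.3 CPM and then at 260, 234 and 225 CPM, an 11.1-fold difference with no overlap (3.49 ± 0.10, adjusted p = 1.3e-12). The retinoid reductase gene Dhrs3 rose by 1.18 ± 0.07.

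Genes for RA synthesis also rose. The dehydrogenase Aldh1a2, which makes most embryonic RA, went from 2.09, 1.82 and 1.99 CPM to 4.79, 4.89 and 7.3 CPM (1.51 ± 0.20), and Aldh1a1 from no more than 0.169 CPM to at least 2.42 CPM (4.51 ± 0.37, 9 counts in all at T24 and 104 at T60). The retinol dehydrogenase Rdh10 rose by 1.18 ± 0.10. The receptors were split. Rxra rose by 1.56 ± 0.08, while Rarg, for another RA receptor, fell from 104 to 124 CPM at T24 to 30.3 to 37.3 CPM at T60 (-1.77 ± 0.09, adjusted p = 2e-10), and Rara was at 134 to 139 CPM and then at 95 to 120 CPM (-0.35 ± 0.07, not called).

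Hox genes encode the homeodomain factors that give cells a position along the body axis, and within each cluster they are numbered from the end that RA activates early. Of 32 tested Hox genes, 15 rose, 2 fell and 15 were not called, with a median change of 0.66. The 4 clusters differed in their counts. In the Hoxc cluster 6 of 7 tested genes rose (median 3.14), in Hoxd 4 of 6 (median 1.46), in Hoxb 4 of 10 (median 0.48) and in Hoxa 1 of 9, with 2 lower (median 0.16).

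Hoxc8 (chromosome 15, 102990607 to 102994111) was at 1.15, 0.909 and 1.1 CPM at T24 and at 21.3, 21.4 and 19.4 CPM at T60 (4.30 ± 0.15, adjusted p = 4.3e-12). It had been at 0.0701 CPM at T0 and 0.0379 CPM at T12, so that nearly all of its RNA was gained after 24 h. Hoxc9 rose by 3.92 ± 0.24, Hoxc6 by 3.36 ± 0.20, Hoxc5 by 3.14 ± 0.13, Hoxc4 by 2.91 ± 0.12 and Hoxc10 by 2.18 ± 0.35. The annotated span of Hoxc5 (102967443 to 103017429) contains Hoxc6, Hoxc8 and Hoxc9 and overlaps Hoxc10, so that how reads were split among these genes is uncertain. Hoxc13, the last gene of the cluster, was at 1.02 to 1.25 CPM and then at 1.44 to 2.49 CPM (0.71 ± 0.27, not called).

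In the Hoxb cluster, Hoxb1, an early target of RA in the hindbrain, went from 0.164 CPM at T0 to 23.6 CPM at T12 and was at 93.3, 104 and 93.8 CPM at T24 and 87.7, 70 and 63.1 CPM at T60. Its T60 values lay below all T24 values, but the change of -0.38 ± 0.09 was smaller than the threshold. Farther along the cluster, Hoxb3 rose by 1.24 ± 0.08, Hoxb8 by 1.12 ± 0.09 and Hoxb9 by 1.30 ± 0.08, the last from 24.9, 24.5 and 23.8 CPM to 65.5, 58.6 and 54 CPM. Hoxa10 was called lower, from 3.31, 2.4 and 3.34 CPM to 0.727, 0.646 and 0.192 CPM (-2.42 ± 0.33), as was Hoxa7 (-0.59 ± 0.11), which was at -0.56 without the T24 replicate 3 and at -0.54 without the T60 replicate 2 and then not called. In the Hoxd cluster Hoxd3 and Hoxd4 rose by 3.21 ± 0.46 and 2.83 ± 0.35, from levels at or below 0.349 CPM at T24.

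**Figure D2:**
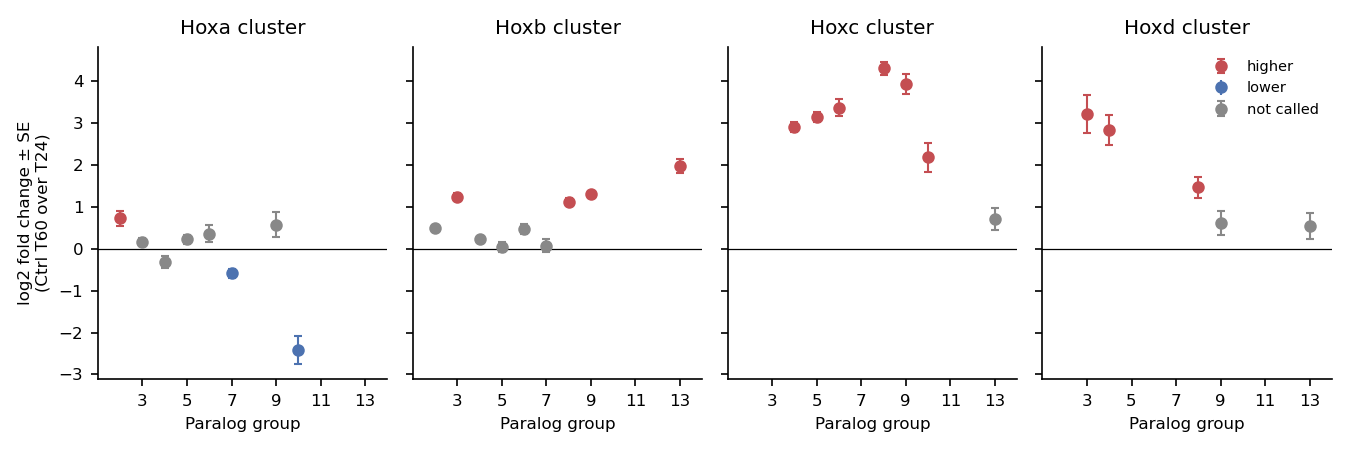
Log2 fold change (T60 over T24, Ctrl cells) with its standard error for the tested Hox genes, by their number in the cluster (paralog group) for the Hoxa, Hoxb, Hoxc and Hoxd clusters, from group 2 on. Red points were called higher, blue lower and grey points were not called. Hoxc8 lies highest at 4.30 and Hoxa10 lowest at -2.42, and the Hoxa and Hoxb genes of groups 4 to 7 lie between -0.59 and 0.48.

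Hox proteins bind DNA together with homeodomain partners of the TALE class. Of 11 tested TALE genes 4 rose, 0 fell and 7 were not called, with a median change of 0.26. The share called, 36.4%, was near the 35.7% of all features, of which 19.8% rose and 15.9% fell. Meis1 went from 52, 52.3 and 59.5 CPM to 223, 236 and 243 CPM (2.11 ± 0.07, adjusted p = 3.5e-12), and its relatives Meis2 and Meis3 rose by 1.46 ± 0.06 and 1.57 ± 0.14.

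The genes of pluripotency went the other way. Of 18 naive pluripotency genes 16 fell and 0 rose (median -1.94), and of 12 general pluripotency genes 9 fell and 0 rose (median -2.52). In all 30 the T24 and T60 values did not overlap, against 70.1% of all features tested. Nanog (chromosome 6, 122707489 to 122714633), a homeodomain factor of the mESC network, was at 189, 153 and 144 CPM at T24 and at 20.7, 20.8 and 17.6 CPM at T60 (-3.02 ± 0.11, adjusted p = 6.2e-12). Its promoter is shown for the element at which OCT4 and SOX2 bind side by side, searched on both strands as TGCAT and ACAA with any base between and set in capitals. The sequence is from RefSeq, GRCm38.p6, plus strand (chr6:122707239-122707538), with the element at -73 to -64. Counted from another RefSeq start of Nanog (promoter chr6:122707315-122707614), the same element lies at -149 to -140.
Nanog: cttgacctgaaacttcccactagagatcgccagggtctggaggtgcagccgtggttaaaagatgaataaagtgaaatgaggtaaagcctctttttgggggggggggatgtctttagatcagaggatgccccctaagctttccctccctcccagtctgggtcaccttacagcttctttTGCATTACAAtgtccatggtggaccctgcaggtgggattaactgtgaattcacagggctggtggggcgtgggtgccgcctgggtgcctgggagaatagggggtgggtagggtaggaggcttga
The element was found in 95 of 32851 promoters (0.289%). Of the 17 tested genes that hold it 3 rose and 3 fell, near the 19.8% and 15.9% of all features.

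Pou5f1, the OCT4 gene (chromosome 17, 35506018 to 35510772), was at 409, 389 and 367 CPM at T24 and at 37.8, 25.3 and 28.1 CPM at T60, 12.8-fold lower (-3.65 ± 0.11, adjusted p = 1.3e-12). Its level had already gone from 855 CPM at T0 to 657 CPM at T12. Sox2 went from 137, 143 and 139 CPM to 28.5, 31.8 and 27.8 CPM (-2.25 ± 0.07). No T60 value of any of these reached the T24 values, although GEO's labels call the cells embryonic stem cells at both times. The nuclear receptor genes Esrrb and Nr0b1 fell by 2.60 and 3.74, and Zfp42 (Rex1), a textbook marker of mESCs, by 2.41. Klf4 fell less, from 56.2, 47.1 and 45.5 CPM to 33, 22.5 and 26.6 CPM (-0.84 ± 0.11). Klf5 and Tbx3 were not called, at -0.16 ± 0.06 each, with Tbx3 at 297 to 308 CPM and then at 247 to 283 CPM.

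Among the general genes, Fgf4, the FGF ligand that mESCs make, fell by 4.09 ± 0.18, the Nodal co-receptor gene Tdgf1 by 3.77 ± 0.13, and Gdf3, a TGF-beta family ligand, by 3.34 ± 0.10. The RNA-binding protein genes Lin28a and Trim71 were not called, at -0.36 ± 0.06 and -0.30 ± 0.06. Of 12 genes listed for formative pluripotency, the step after the naive state, 7 fell and 3 rose (median -0.72). Otx2, Pou3f1 and Zic5 fell by 3.58, 3.08 and 2.86. The 3 that rose were Foxd2, Krt18 and Sox4, of which Krt18, a keratin of simple epithelia, went from 158, 150 and 151 CPM to 898, 766 and 905 CPM (2.49 ± 0.07) and Sox4, widely used in progenitor cells, rose by 1.66 ± 0.06. The naive list summed to 1997 to 2206 CPM at T24 and 683 to 815 CPM at T60, while the endoderm markers described further on summed to 781 to 920 CPM and 4708 to 5946 CPM. The endoderm sum includes matrix genes that other cells also make. Whether a change in cell types has a part in the lower levels was not tested.

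**Figure D3:**
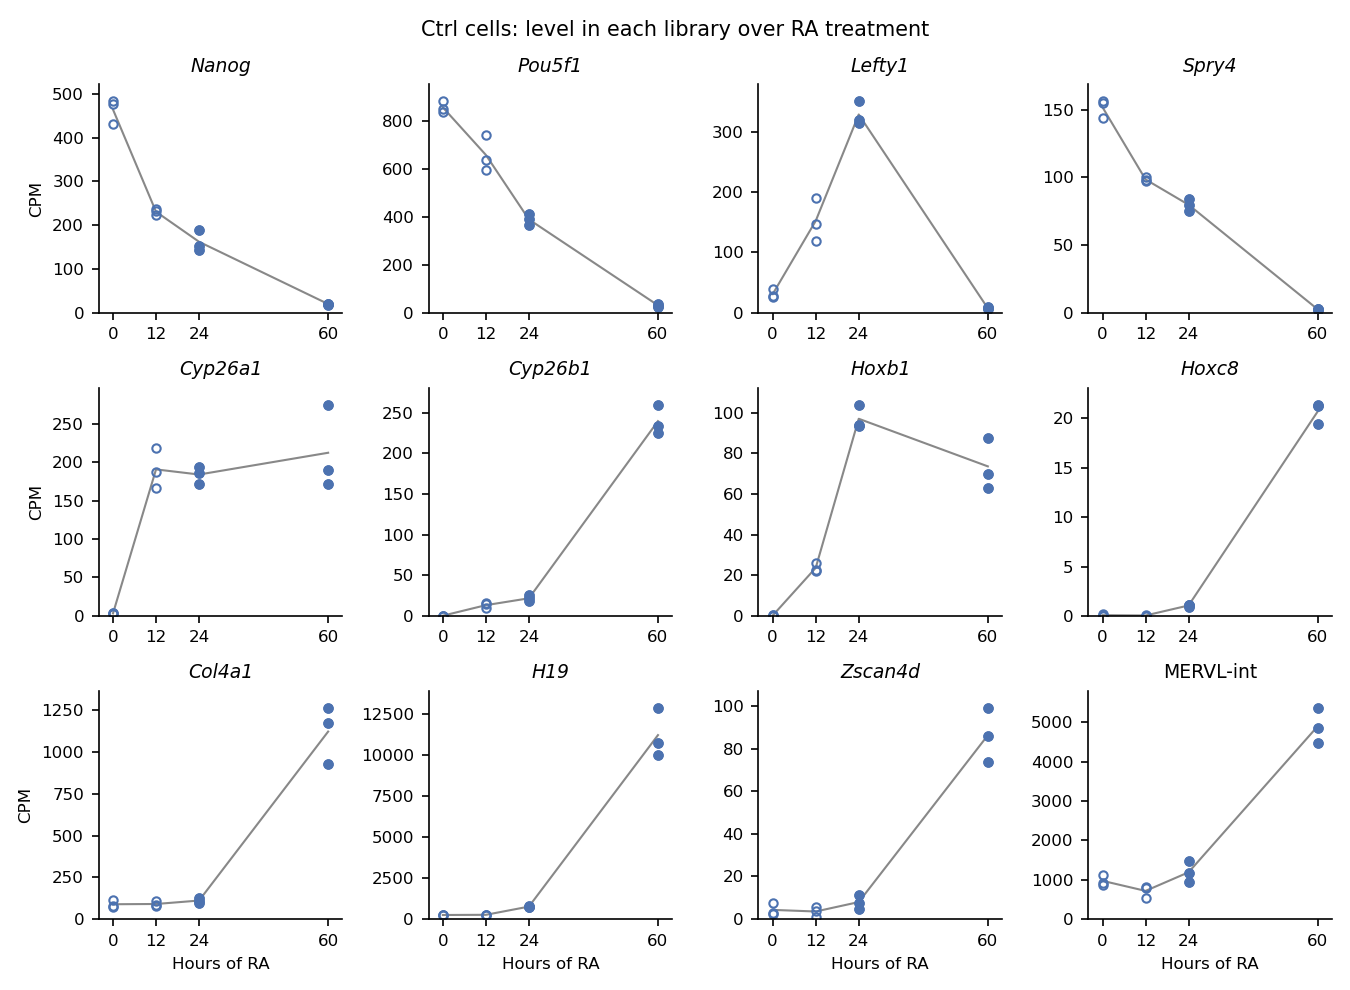
Level (CPM) in each Ctrl library against hours of RA, for 11 genes and the repeat MERVL-int, with a grey line through the group means. Open points are T0 and T12 and filled points T24 and T60. Nanog and Pou5f1 came down at every step, Lefty1 reached 315 to 350 CPM at 24 h and 6 to 8.91 CPM at 60 h, Cyp26a1 stayed near its 12 h level, and Hoxc8, Col4a1, H19, Zscan4d and MERVL-int came up after 24 h.

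Signals that mESCs use on themselves were among those with the largest decreases. Of 8 Nodal pathway genes 5 fell and 0 rose (median -1.85). Lefty1 (chromosome 1, 180935022 to 180938400), a secreted inhibitor of Nodal, was at 315, 350 and 320 CPM at T24 and at 8.91, 6 and 6.92 CPM at T60 (-5.45 ± 0.10, adjusted p = 2.6e-14). It had come up from 30.7 CPM at T0 and 152 CPM at T12, so that its level at 24 h was a peak among the 4 times sampled. Lefty2 and the ligand gene Nodal fell by 3.58 ± 0.12 and 2.23 ± 0.10, and Foxh1, which carries Nodal signals to DNA, by 1.47 ± 0.11.

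Of 15 FGF and ERK genes 9 fell and 2 rose (median -1.02). Sprouty and ETS factor genes are switched on by ERK and serve as readouts of it. Spry4 (chromosome 18, 38586247 to 38601415) went from 75.3, 79.5 and 84.2 CPM to 2.49, 2.31 and 2.59 CPM, 32.4-fold lower (-5.00 ± 0.11, adjusted p = 7.4e-14). Etv4 and Etv5 fell by 3.45 ± 0.09 and 2.65 ± 0.08, Spry2 by 1.28 ± 0.08 and the phosphatase gene Dusp6 by 1.02 ± 0.07. Spry1 was at 16.3 to 17.3 CPM and then at 13.6 to 15.6 CPM (-0.18 ± 0.09, not called). The 2 that rose encode receptors, Fgfr2 from 50, 58.4 and 63.4 CPM to 149, 156 and 170 CPM (1.48 ± 0.08) and Fgfr4 (0.92 ± 0.13).

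WNT and BMP genes were called higher more often than lower. Of 19 WNT pathway genes 12 rose and 1 fell (median 0.65). The receptor gene Fzd2 went from 42.2, 48.6 and 44.8 CPM to 249, 234 and 228 CPM (2.40 ± 0.07, adjusted p = 8.2e-13), the R-spondin receptor gene Lgr5 rose by 3.51 ± 0.22, the ligand gene Wnt6 by 2.93 ± 0.16 and the secreted inhibitor gene Dkk1 by 2.07 ± 0.12. Axin2, a feedback target used as a readout of the pathway, rose by 0.65 ± 0.07. The 1 that fell was the secreted inhibitor gene Sfrp2 (-0.59 ± 0.12), which was not called without the T60 replicate 2 (-0.50) or 3 (-0.54). The ligand gene Wnt3a, counted in the mesoderm and axial list and not here, was lower too (-3.24 to -2.51 with each library left out in turn). Of 13 BMP genes 7 rose and 0 fell (median 0.84). They included the ligand genes Bmp2, Bmp4 and Bmp7, at 2.11 ± 0.11, 1.93 ± 0.13 and 1.76 ± 0.15, the target Id3, from 48.2, 58.7 and 58.5 CPM to 159, 129 and 130 CPM (1.35 ± 0.09), and the BMP antagonist gene Nog (2.08 ± 0.18). The Notch list was split, with 3 of 12 higher and 4 lower (median 0.22). The receptor gene Notch3 rose by 1.16 ± 0.07, while the ligand gene Dll1 and Mfng, which modifies the receptor, fell by 0.80 ± 0.15 and 1.55 ± 0.23.

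Markers of cell lineages were examined next, beginning with the neural lineage toward which RA is commonly used. Of 20 neural progenitor markers 13 passed the count filter, and 7 rose and 3 fell (median 0.66). Hes5, Fabp7, Olig2, Pax3, Pax7, Neurog1 and Neurog2 did not pass. Nes, an intermediate filament of neural stem cells that other progenitors also make, went from 89.2, 94.9 and 90.3 CPM to 281, 261 and 270 CPM (1.58 ± 0.06, adjusted p = 8.1e-12). Irx3, a homeodomain factor of the neural tube, went from 4.35, 6.4 and 5.24 CPM to 51, 42.2 and 60.1 CPM (3.27 ± 0.14). Pax6, a factor of neural stem cells, was called at 0.68 ± 0.13 but not without the T24 replicate 1 (0.50). The early neural gene Sox1 fell, from 17.1, 17.9 and 17.9 CPM to 8.3, 5.63 and 3.84 CPM (-1.51 ± 0.17).

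Of 20 markers of neurons 15 were tested, of which 9 fell and 4 rose (median -1.22). Tubb3, a tubulin of neurons, went from 31.2, 30.1 and 28.8 CPM to 14.2, 13.3 and 10.7 CPM (-1.22 ± 0.10), and Stmn2, a tubulin-binding protein of neurons, from 93, 84 and 83.5 CPM to 24.9, 19 and 17.3 CPM (-2.06 ± 0.10, adjusted p = 2.8e-10). Both had been higher still at T0, at 98.7 and 194 CPM. Among those that rose were Map2, of neuronal microtubules, and Gap43, of growing axons, at 1.04 ± 0.16 and 1.03 ± 0.11.

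Endoderm markers moved together. Of 20 markers of primitive, parietal, visceral and definitive endoderm, 19 rose and 0 fell (median 2.43), and their sum went from 781 to 920 CPM at T24 to 4708 to 5946 CPM at T60. Col4a1 (chromosome 8, 11198423 to 11312826), a basement membrane collagen, was at 128, 96.7 and 108 CPM and then at 1264, 928 and 1174 CPM (3.35 ± 0.12, adjusted p = 5.6e-12). Lama1, a laminin chain, rose by 3.39 ± 0.10 and Sparc, a matrix glycoprotein, by 2.41 ± 0.08, and these 3 are made by other matrix-producing cells too. Col4a1 alone gave 928 to 1264 CPM of the T60 sum, so that matrix genes weigh heavily in it. The endoderm transcription factor genes Sox17, Foxa2, Gata4 and Gata6 rose by 2.93 ± 0.19, 2.87 ± 0.17, 2.27 ± 0.16 and 1.34 ± 0.10. Gata6 stood at 29.4, 28 and 36 CPM at T24 and 90.1, 71.1 and 71.9 CPM at T60, against 2.98 CPM at T0. Cubn and Dab2, for uptake of proteins from the lumen in visceral endoderm and kidney, rose by 2.80 ± 0.16 and 2.44 ± 0.10.

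The plasma protein genes Ttr and Afp, made by visceral endoderm and fetal liver, were the genes with the largest increases of those eligible for naming. Ttr was at 0.0675, 0.145 and 0.15 CPM and then at 23.9, 18.7 and 23.9 CPM (7.50 ± 0.23, 9 counts in all at T24 and 846 at T60). Afp was at 0.0337, 0.0364 and 0.0997 CPM and then at 9.94, 11.9 and 13.2 CPM (7.64 ± 0.31, 4 and 430 counts). With so few counts at T24, the size of both changes is known only roughly.

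Of 17 tested markers of mesoderm and axial progenitors 9 fell and 5 rose (median -1.07). Genes of the tail-end progenitors were among those that fell. Cdx1, a homeodomain factor that RA induces directly, had gone from 2.77 CPM at T0 to 76.7, 63.5 and 62.3 CPM at T24 and was at 16.4, 10.9 and 9.8 CPM at T60 (-2.40 ± 0.14, adjusted p = 1.3e-09). Cdx2, T (Brachyury), Wnt3a, Fgf17 and Nkx1-2 fell by 2.64, 3.01, 2.76, 3.67 and 4.55. Cdx4 had 109 counts at T24 and 2 at T60, a ratio of 26.7 with a 95% counting interval from 7.2 to 223 (fitted change -4.59, or -7.81 without the T60 replicate 1). Among the 5 that rose were Foxc2, Twist1, Meox1 and Kdr, genes of paraxial mesoderm, mesenchyme and blood vessels, at 2.85 ± 0.22, 2.67 ± 0.15, 2.14 ± 0.12 and 2.06 ± 0.19.

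Of 11 tested neural crest genes 7 rose and 1 fell (median 1.73), led by Sox9, also a factor of cartilage and neural tube, from 3.07, 2.07 and 3.29 CPM to 46.7, 51.7 and 51.4 CPM (4.17 ± 0.13, adjusted p = 1.8e-12). Sox10, more specific to the crest, was at 3.56 to 3.74 CPM and then at 1.66 to 3.15 CPM (-0.61 ± 0.22, adjusted p = 0.022), but was called without the T60 replicate 1 (-0.98), and Pax3 did not pass the count filter. Of 8 tested trophoblast markers 4 rose (Krt7, Plac1, Gata3 and Gata2, by 1.68 to 2.52) and 2 fell (Tfap2c and Eomes), while Elf5, Prl3d1 and Tpbpa did not pass the count filter.

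Matrix and junction genes rose with them. All 15 tested genes of the extracellular matrix list rose (median 1.85), and the sum of the list went from 1815 to 1937 CPM to 4160 to 4899 CPM. Col3a1, a fibrillar collagen of loose connective tissue, went from 3.85, 2.55 and 2.94 CPM to 57.8, 54.1 and 37.8 CPM (4.01 ± 0.17), Tnc, a matrix protein of moving cells, rose by 3.27 ± 0.11, Col1a2 by 3.07 ± 0.08 and Fbn2 by 2.47 ± 0.06. Of 15 genes that mark epithelial and mesenchymal cells 11 rose and 0 fell (median 1.73), and they came from both sides. The keratin genes Krt8 and Krt19 rose by 2.33 ± 0.07 and 2.37 ± 0.07 and the tight junction gene Cldn6 by 1.83 ± 0.07, beside the mesenchymal cadherin genes Cdh11 and Cdh2 (3.04 ± 0.25 and 2.09 ± 0.09), Snai1 (1.73 ± 0.17) and Vim (1.26 ± 0.06). The epithelial genes Cdh1 and Epcam were not called, at 0.51 ± 0.05 and -0.08 ± 0.06.

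Beyond the lists, the 12 genes with the largest increases among those with no overlap and at least 5 CPM in the higher group were, besides Afp and Ttr, Igfbp5, Nr2f2, Smoc2, Nr2f1, Hand2, Ccdc80, Daam2, Foxf1, Osr1 and Gas1, with changes from 5.06 to 7.64. Nr2f1 and Nr2f2 encode COUP-TF nuclear receptors, which RA induces in many cells. Nr2f2 was at 0.945, 1.2 and 1.75 CPM and then at 91.7, 102 and 98.1 CPM (6.28 ± 0.13, adjusted p = 7e-14), and Nr2f1 rose by 5.53 ± 0.16. Igfbp5, a secreted binding protein of insulin-like growth factors, was at 1.65, 1.53 and 1.75 CPM and then at 158, 179 and 183 CPM (6.73 ± 0.10, adjusted p = 5e-15). Hand2, Foxf1 and Osr1 encode transcription factors of lateral and intermediate mesoderm and rose by 5.45 ± 0.25, 5.11 ± 0.21 and 5.07 ± 0.34, to between 4.67 and 15.9 CPM.

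Among the 12 genes with the largest decreases by the same rule were, besides Lefty1, Spry4 and Nkx1-2, Cphx1, mt-Tf, Col6a5, Platr10, Nphs1, Accsl, Ttn and Platr16. Cphx1, a homeobox gene of the early embryo, had 813 counts at T24 and 3 at T60, a ratio of 133 with a 95% counting interval from 45.2 to 644 (fitted change -6.98, or -7.66 without the T60 replicate 1), and it had gone from 0.703 CPM at T0 to 5.4 to 14.1 CPM at T24. Platr10 and Platr16, noncoding RNAs named for their link to pluripotency, fell by 4.74 and 4.31, and Ttn, the giant muscle protein gene, by 4.44, from 67.9 to 82.3 CPM at T24. The mitochondrial tRNA mt-Tf had 393 counts at T24 and 3 at T60 (ratio 64.1, counting interval 21.8 to 312, fitted change -5.91, or -6.91 without the T60 replicate 2). The share of mitochondrial counts was also lower at T60, and its part in this value was not tested.

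Imprinted genes, expressed from 1 parental copy, showed large changes in level. Of 16 listed, 11 rose and 4 fell (median 1.44). The groups did not overlap in any of the 16, against 70.1% of all features tested. H19 (chromosome 7, 142575529 to 142578143), a maternal noncoding RNA of embryonic growth, was at 744, 766 and 775 CPM and then at 10769, 10016 and 12888 CPM, 14.7-fold higher (3.89 ± 0.09, adjusted p = 1.7e-13). Its neighbour Igf2 (142650766 to 142666816), a paternal growth factor gene, went from 30.1, 25.3 and 24.8 CPM to 214, 186 and 194 CPM (2.89 ± 0.08). The paternal gene Dlk1 and the maternal RNAs Meg3 and Mirg of the same domain rose by 2.51 ± 0.08, 2.46 ± 0.07 and 2.26 ± 0.07, and Peg3, a paternal zinc finger gene, by 3.31 ± 0.08. Grb10, an inhibitor of growth signals, fell by 1.46, and Cdkn1c and Snrpn by 1.05 and 1.03. The files give no allele, so that levels of the 2 copies could not be compared. The sum of this list went from 4991 to 5406 CPM to 24462 to 27910 CPM, beside the endoderm and matrix sums given above.

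Enzymes that write and remove DNA methylation changed as well. Of 9 listed, 5 fell and 1 rose (median -0.60), with Dnmt3a and Dnmt3b also counted in the formative list. Tet1 and Tet2, which oxidize methylcytosine, fell by 1.43 ± 0.07 and 1.81 ± 0.07, while their relative Tet3 went from 44.2, 44.8 and 42.7 CPM to 121, 121 and 140 CPM (1.54 ± 0.07, adjusted p = 9.1e-11). The methyltransferase genes Dnmt3b and Dnmt3a and their cofactor gene Dnmt3l fell by 0.85, 0.60 and 0.93, the second close to the threshold, and the maintenance enzyme gene Dnmt1 was at 369 to 373 CPM and then at 408 to 432 CPM (0.18 ± 0.05, not called). Of 12 germline genes, which DNA methylation holds silent in body cells, 5 fell and 2 rose (median -0.68). They included Stra8, the RA target that starts meiosis, which had come up from 11.7 CPM at T0 to 411, 438 and 433 CPM at T24 and was at 273, 272 and 272 CPM at T60 (-0.64 ± 0.06), and the meiotic axis gene Sycp3, which fell by 2.60 ± 0.24.

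A group of genes that mark the rare 2-cell-like state of mESC cultures rose. All 11 tested members rose (median 3.04), and their sum went from 34.7 to 89.6 CPM to 399 to 537 CPM. Zscan4d (chromosome 7, 11161374 to 11166159) was at 11.5, 4.73 and 7.73 CPM and then at 99.1, 86 and 73.6 CPM (3.43 ± 0.20, adjusted p = 1.4e-09), and it had been at 4.31 CPM at T0 and 3.56 CPM at T12. The Zscan4 and Usp17l genes are near-identical copies, so that reads can be split among them and their levels are not independent. The other Zscan4 genes rose by 2.19 to 3.38 and the Usp17l genes by 2.51 to 3.41, and Zfp352 and Tcstv3, which are not members of these families, by 3.04 ± 0.36 and 3.32 ± 0.25. Zfp352 was at 4.06 without the T24 replicate 1, whose values were the highest of the 3 T24 libraries for 10 of the 11 genes.

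Cells in the 2-cell-like state also transcribe the endogenous retrovirus MERVL, whose RNA rose too. MERVL-int, the internal part of the element, was at 1468, 933 and 1164 CPM and then at 5363, 4846 and 4476 CPM (2.05 ± 0.13, adjusted p = 2.8e-09), and its promoter repeat MT2_Mm went from 316, 182 and 253 CPM to 1167, 1032 and 932 CPM (2.07 ± 0.15). These were exceptions among repeats. Of 851 repeat subfamilies tested, 19 were higher (2.23%) and 291 lower (34.2%), with a median change of -0.57, against 0.03 for genes. All 19 that rose were LTR subfamilies, among 507 tested, of which 192 fell (median -0.60). Of 134 LINE subfamilies 44 fell and 0 rose (median -0.53), and of 34 SINE subfamilies 4 fell and 0 rose (median -0.46). Of the 176 tested subfamilies outside these classes 51 fell and 0 rose (median -0.59), so that the decrease was not particular to 1 class. These medians lie close to the threshold (0.58 in size), so that many subfamilies with similar changes were not called.

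By the naming rule, the repeats with the largest increases were MT2_Mm, ERVB4_1-I_MM-int, MERVL-int, LTR78 and IAPEY4_I-int, at 1.83 to 2.07, and those with the largest decreases RLTR45-int, MMERVK9C_I-int, ETnERV2-int, MMETn-int and LTRIS2, at -3.23 to -2.91. MMETn-int, an early transposon of the ETn group that mESCs express, was at 3833, 3600 and 4557 CPM and then at 451, 590 and 437 CPM (-3.01 ± 0.12, adjusted p = 2.1e-11). The related ETnERV-int fell by 2.82 ± 0.06, and L1Md_A, a young LINE-1 subfamily, from 1623, 1515 and 1489 CPM to 711, 727 and 689 CPM (-1.11 ± 0.06). Its relatives L1Md_T and L1Md_Gf fell less (-0.61 ± 0.07 and -0.63 ± 0.06), and L1Md_F2 was not called (-0.52 ± 0.07). IAPEz-int was at 635 to 686 CPM and then at 767 to 784 CPM (0.23 ± 0.06, not called). ETnERV-int, IAPEz-int and the L1Md subfamilies were named after their values were seen.

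**Figure D4:**
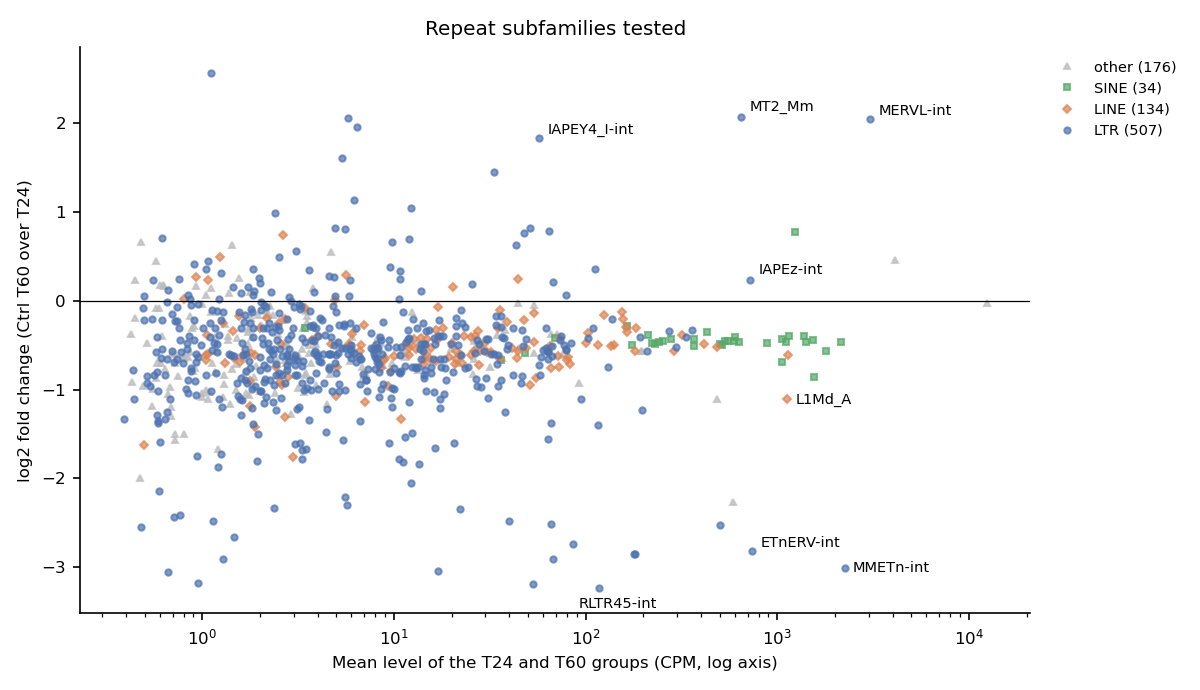
Log2 fold change (T60 over T24, Ctrl cells) of each of 851 tested repeat subfamilies against its mean level in the T24 and T60 groups (CPM, log axis), with a symbol for each class. Most points lie below 0, with a median of -0.57, while MERVL-int and MT2_Mm lie at 2.05 and 2.07 and MMETn-int at -3.01.

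Repeats together held 7.62, 7.85 and 7.23% of the counts in the T24 libraries and 5.94, 6.1 and 5.85% in the T60 libraries. Their mean share was 7.57% ± 0.311 and 5.96% ± 0.126 (SD, n = 3 each), a difference of -1.61 percentage points (two-sided exact permutation test, p = 0.1, the smallest that 3 against 3 allows). LINEs went from 0.938% ± 0.0262 to 0.624% ± 0.0672 and LTRs from 1.92% ± 0.0521 to 1.43% ± 0.0911 (p = 0.1 each, by the same exact test). The mitochondrial share differed between the times too, and without mitochondrial genes the difference of all repeats was -1.73 percentage points.

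Genes of the cell cycle, of p53 and of glycolysis were called about as often as all features (35.7%). Of 25 cell cycle genes 4 rose and 5 fell (median -0.27). The cyclin gene Ccnd1 went from 54.1, 55.3 and 54 CPM to 22.7, 22 and 19.9 CPM (-1.32 ± 0.07), and the inhibitor genes Cdkn2b, Cdkn2a and Cdkn1a rose by 2.30 ± 0.13, 1.61 ± 0.13 and 1.13 ± 0.09. Of 12 p53 targets 4 rose and 0 fell (median 0.17), or 2 without the T24 replicate 3 or the T60 replicate 1, and Bax, a p53 target of cell death, was not called (-0.24 ± 0.07). Of 20 hypoxia and glycolysis genes 6 fell and 1 rose (median -0.36), with Pfkp, an enzyme of early glycolysis, from 84.6, 83.5 and 65.6 CPM to 21.4, 14.7 and 11.6 CPM (-2.25 ± 0.15). The targeted gene Pole4, whose RNA the degron tag leaves in place, was at 42, 44.1 and 46.8 CPM and then at 23.9, 22.1 and 23.9 CPM (-0.92 ± 0.08). Mcm2 was at 428, 423 and 426 CPM and then at 297, 260 and 291 CPM (-0.58 ± 0.06), at the threshold, and was not called without the T60 replicate 2 (-0.53).

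To ask whether the late change depended on POLE4, the change from 24 to 60 h was compared between dPOLE4 and Ctrl cells. None of 19225 features differed by edgeR's quasi-likelihood test at the same threshold, while 1304 (6.78%) had an unadjusted p under 0.05 and DESeq2 called 5. The 5 were MMVL30-int, Sox1, Crabp1, Gm23472 and RLTR10C, named for this reason, with adjusted p of 0.07 to 0.24 in edgeR. For Nanog the difference of changes (dPOLE4 minus Ctrl) was 0.28 ± 0.17, for Hoxb9 0.30 ± 0.11 and for H19 -0.36 ± 0.11. A p that misses the threshold does not show that the changes were the same.

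The same comparison with the Ctrl MCM2-2A line gave 1567 of 19536 features called (8.02%), 843 with a positive difference (4.32%) and 724 with a negative one (3.71%), and 35% of features at an unadjusted p under 0.05. The line is 1 clone, so that the mutation and the clone cannot be told apart, and both sets of values share the Ctrl libraries. Of 18 naive pluripotency genes 11 differed, all with a positive difference. Nanog was at 202, 182 and 171 CPM and then at 96, 74 and 70.7 CPM in Ctrl MCM2-2A, 2.3-fold lower at T60, against 8.2-fold lower in Ctrl (difference 1.82 ± 0.16, adjusted p = 2e-07). Pou5f1 was 4.88-fold lower there and 12.8-fold lower in Ctrl (difference 1.36 ± 0.14), and Esrrb differed by 1.52 ± 0.15. Of 8 Nodal pathway genes 4 differed, among them Lefty2 (1.76 ± 0.17), and of 15 FGF and ERK genes 7, among them Spry4, at 85.5 CPM and then 13 CPM in Ctrl MCM2-2A (2.27 ± 0.21). All of these differences were positive.

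In the mesoderm and axial list 8 of 17 genes had a positive and 1 a negative difference. Cdx1 was at 135, 135 and 146 CPM and then at 59.1, 57.2 and 50.9 CPM in Ctrl MCM2-2A (1.09 ± 0.16). All 10 called 2-cell-like genes had a negative difference, with Zscan4d at 15.3, 10.3 and 19.7 CPM and then at 52.8, 38.7 and 37.3 CPM (-1.88 ± 0.31, adjusted p = 0.00026), whereas MERVL-int was not called (-0.48 ± 0.21). The 5 repeats named for the largest decreases in Ctrl were all called with a positive difference, from MMETn-int (0.75 ± 0.16) to RLTR45-int (3.17 ± 0.19). RLTR45-int was at 94.5, 81 and 123 CPM and then at 108, 93.1 and 82.5 CPM in Ctrl MCM2-2A. Of the repeats named for the largest increases only IAPEY4_I-int was called (-0.63 ± 0.16). H19 was at 402, 507 and 483 CPM and then at 2287, 2141 and 2219 CPM, 4.78-fold higher against 14.7-fold in Ctrl (-1.63 ± 0.12, adjusted p = 1.9e-08). Of 32 Hox genes 7 had a negative and 3 a positive difference, with Hoxb9 at 29.2, 30.4 and 32.3 CPM and then at 37.2, 33.8 and 36.8 CPM (-1.06 ± 0.10) and Hoxa10 at 4.64, 4.31 and 4.32 CPM and then at 6.22, 5.65 and 6.68 CPM (2.90 ± 0.34). Neural progenitor genes went both ways, with Irx3 at -1.77 ± 0.26 and Nes at 1.30 ± 0.09. Endoderm genes did too, with 3 positive and 4 negative differences of 20 tested, Sox17 at 1.81 ± 0.26 and Apoa1 at -5.39 ± 0.74 (-4.74 without the Ctrl MCM2-2A T24 replicate 3). All 7 called matrix genes had a positive difference, among them Tnc (2.83 ± 0.29), which was at 0.301 to 0.326 CPM at T24 and 21.5 to 23.3 CPM at T60 in Ctrl MCM2-2A.

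**Figure D5:**
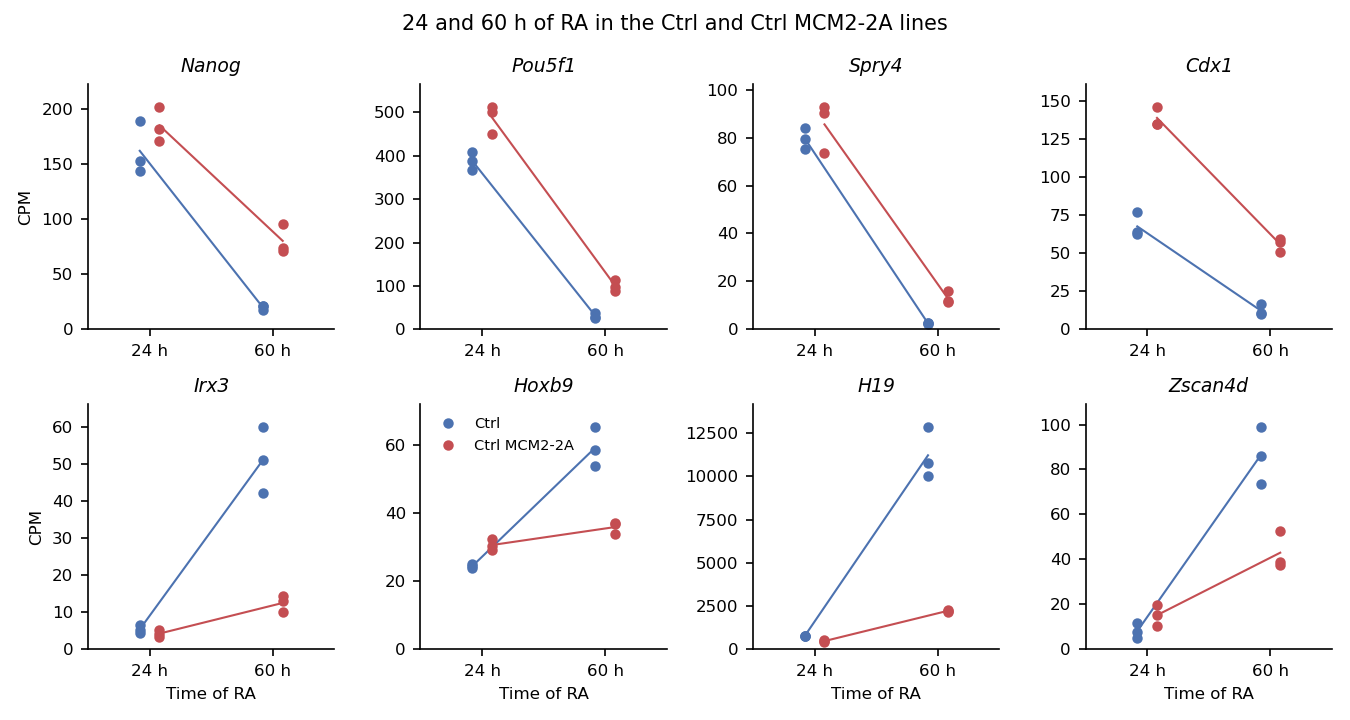
Level (CPM) in each library at 24 and 60 h of RA in Ctrl (blue) and Ctrl MCM2-2A (red) cells for 8 genes, with lines through the group means. Nanog, Pou5f1, Spry4 and Cdx1 were lower at 60 h in both lines but less so in Ctrl MCM2-2A, and Irx3, Hoxb9, H19 and Zscan4d were higher at 60 h with a smaller step in Ctrl MCM2-2A, H19 by 4.78-fold against 14.7-fold.

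Of the 1068 features called both for the Ctrl change and for this difference, among those with a group mean of at least 5 CPM in either line the largest positive differences were those of Mir124a-1hg, Pcdh7, Nkx1-2, Ltb, Ly6a and Dok2. Mir124a-1hg, the host transcript of a neuronal miRNA, had 202 counts in the Ctrl T24 libraries and 0 in the Ctrl T60 libraries, at least 32.9-fold lower against a floor of 3 counts over the group, and was at 5.06 CPM and then 1.43 CPM in Ctrl MCM2-2A. Pcdh7, a protocadherin gene, was higher at T60 in both lines, from 1.27 to 2.6 CPM to 9.51 to 13.7 CPM in Ctrl and from at most 0.282 CPM to at least 13.9 CPM in Ctrl MCM2-2A (4.30 ± 0.56, or 6.21 without the Ctrl MCM2-2A T24 replicate 2). Nkx1-2 was already low in Ctrl MCM2-2A at T24, at 1.17 CPM and then 0.93 CPM, against 5.16 CPM and then 0.205 CPM in Ctrl (4.18 ± 0.49). Dok2, an adaptor of kinase signalling, was 5.99-fold lower in Ctrl and 1.53-fold higher in Ctrl MCM2-2A (3.18 ± 0.20). By this rule, which leaves out Apoa1, the largest negative differences were those of Daam2, AF067061, Ttr, Gabrp, Smoc2 and Tnni2, from -4.26 to -2.78, of which that of Smoc2 was not called without the Ctrl MCM2-2A T24 replicate 2 (-2.46). Daam2, a formin-type actin regulator, was 36.4-fold higher in Ctrl and 2-fold higher in Ctrl MCM2-2A (-4.26 ± 0.42, adjusted p = 7.2e-07), and Ttr 183-fold and 22.2-fold higher (-3.09 ± 0.60).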

How the data were processed

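The series measured RNA by rRNA-depleted, strand-specific sequencing in mESC triplicates. The values used are raw read counts per gene and repeat subfamily, deposited by the authors, who trimmed reads with cutadapt 4.2, aligned them to mm10 with STAR keeping multiple alignments, and counted them with TEcount, without pooling replicates. Near-identical gene copies and repeat subfamilies can therefore share reads. A second table, of 96 h libraries made without RA, was not used here.

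Groups and times were taken from the sample titles, with 3 libraries each and 10461077 to 29229306 counts in each of the 6 main libraries. The treatment protocol in the labels gives partly different times of RA, without T12 and with a time between T24 and T60, and this conflict was not resolved. Low features were removed by edgeR (filterByExpr with a count of at least 10 and a total of at least 15), and the rest were scaled by TMM over genes and repeats and tested with edgeR 4.0.16 (quasi-likelihood F test, limma 3.58.1, R 4.3.3), with Benjamini-Hochberg adjustment over all features tested. A call needed an adjusted p under 0.01 and a log2 fold change beyond 0.58 in size. Standard errors are the log2 fold change divided by the square root of F. The changes in dPOLE4 and Ctrl MCM2-2A cells were compared with that in Ctrl cells by an interaction term in 12 libraries. CPM were computed here on 1 TMM scale over 24 libraries. Shares of counts were compared by exact permutation tests, and counting intervals and floors cover counting error only.

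Named outside the lists were the 12 genes, and the 5 repeats, with the largest called change in each direction, and 6 features per direction for the Ctrl MCM2-2A difference. Genes and repeats named for their change had no overlap between groups and at least 5 CPM in the higher group, features named for the difference a mean of at least 5 CPM in 1 of the 4 groups, and no gene had a predicted or pseudogene symbol. The gene lists and members were chosen with earlier results of these data known. Where the text gives other members of a list, those with the largest called changes and selected members that were not called were taken as examples, after their values were seen. Some genes that the lists or the rule include are not reported here.

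Promoters were taken from RefSeq for GRCm38.p6, in which 278 of 396 list members had an entry. Alternatives were DESeq2 1.42.0, other scalings, filters and thresholds, all 12 Ctrl libraries in the fit, the replicate number as a block, robust dispersions, each library left out in turn and, chosen after seeing the data, thinning to 10461077 counts. Counts were simulated for the 18290 features with the same dispersion for every feature, and the count filter was then applied again. Changes were given to 50 features at each size, all above a minimum level at T24. The test called 100% of those at a log2 fold change of 2 or -2, 80% at 1, 66% at -1 and 1 of 17386 unchanged ones. Neither the dispersion nor the number of changed features was matched to the data, so that these shares are not its error rates. Python 3.11.15 with pandas 2.3.3, scipy 1.17.1 and matplotlib 3.10.9 was used for tables and plots.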

Additional observations from a re-analysis of the deposited data

Results flagged for a closer look

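The change from 24 to 60 h differed between Ctrl MCM2-2A and Ctrl cells for 1567 features by edgeR's interaction test, and the named ones among them are given here as differences of log2 fold change (Ctrl MCM2-2A minus Ctrl). The line is 1 clone, and the part of the clone was not tested. The factors and signals of pluripotency had positive differences, namely Nanog (1.82), Esrrb (1.52), Pou5f1 (1.36), Lefty2 (1.76) and Spry4 (2.27). The axial genes Cdx1 (1.09), Nkx1-2 (4.18, from only 1.17 CPM at T24 in Ctrl MCM2-2A) and Hoxa10 (2.90) had positive differences too. So did Nes (1.30), Sox17 (1.81), Tnc (2.83), Pcdh7 (4.30), Ltb (3.43), Ly6a (3.22), Dok2 (3.18) and Mir124a-1hg, whose fitted value of 6.90 depends on the prior count since its Ctrl T60 libraries were all at 0 counts. Negative differences were found for Irx3 (-1.77), Hoxb9 (-1.06), H19 (-1.63), Zscan4d (-1.88), Ttr (-3.09), Apoa1 (-5.39), Daam2 (-4.26), Smoc2 (-2.83), Gabrp (-2.93), Tnni2 (-2.78) and AF067061 (-3.26, or -4.09 without the Ctrl T24 replicate 1). Among the named repeats, differences were positive for RLTR45-int (3.17), LTRIS2 (2.30), MMERVK9C_I-int (1.54), ETnERV2-int (1.47), ETnERV-int (0.78) and MMETn-int (0.75), and negative for IAPEY4_I-int (-0.63).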

How the results depend on the processing

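In the Ctrl comparison a test against a 1.5-fold change called 3845 features and dropping the fold change minimum 10084, beside 6528. The Ctrl MCM2-2A difference without that minimum called 2424, beside 1567. For the dPOLE4 difference, DESeq2 called 5 and the fit with no filter on low counts 34, beside 0. All other alternatives left these counts within 1.5 times, among them DESeq2 for Ctrl (6091, of which 6032 were shared with the 6528), at least 10 counts in every library (5181) and thinning (5762), and no called feature of the Ctrl comparison changed sign under any of those run. With each library left out in turn, calls ranged from 6032 to 6644 for Ctrl, 1221 to 1626 for Ctrl MCM2-2A and 0 to 0 for dPOLE4, called list members from 241 to 246 (251 with all), and the difference in repeat share from -1.77 to -1.47 percentage points, for LINEs from -0.351 to -0.284 and for LTRs from -0.526 to -0.435. Cyp26a1, not called, ranged from -0.02 to 0.35. Of 234 list counts under alternatives 230 stayed within 1.5 times, the exceptions being the p53 list (2 without the T24 replicate 3, without the T60 replicate 1 or at 10 counts in every library) and the mesoderm list (8 at 10 counts in every library, where fewer genes were tested). The mean correlation of deviations between same-numbered Ctrl libraries was 0.07, 0 and 0.05 for numbers 1 to 3. It was -0.07 to 0.01 between differently numbered ones. These values show no clear pairing by number but cannot exclude it. With the replicate number as a block 6451, 1662 and 0 features were called, of which 6390 and 1546 were shared. Depth limits low genes most, since the shallowest library held 10461077 counts.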
